A study of Homo sapiens with 2 samples.

Results

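Cluster 4 is 1 of the 6 cell clusters that the authors numbered among the MDA-MB-453 cells, and its members are the cells with that number in the deposited cell table. It holds 777 of the 5985 cells of the series, and the remaining 5208 cells are called the other cells here. MDA-MB-453 is an established human breast cancer line, labelled as triple-negative and wild type. 1 culture received IL1β and TNFα (10 ng/ml, 24 hours) and 1 culture received vehicle (water) for the same time, and a 10x Genomics 3′ single-cell library was made from each. In the IL1β + TNFα library 329 of 3163 cells were in cluster 4, which is 10.4% (95% Clopper-Pearson interval 9.36 to 11.5). In the vehicle library 448 of 2822 cells were in cluster 4, which is 15.9% (14.5 to 17.3). Neither condition had a replicate, so every interval covers counting error and none covers the spread between cultures. The clusters were made from the RNA of these same cells, so the differences between cluster 4 and the other cells are a description of the cluster and carry no test.

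MDA-MB-453 cells resemble luminal cells of the mammary gland, which line the ducts, express simple epithelial keratins and secrete proteins such as trefoil factors. IL1β and TNFα bind their receptors and release the transcription factor NF-κB from its inhibitors, after which genes for chemokines, acute phase proteins and antigen presentation are transcribed. The study asked which of these cells take part in tryptophan breakdown along the kynurenine pathway, whose opening step is catalysed by the enzymes TDO2 and IDO1.

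Levels are given as UMIs of a gene per 1000000 UMIs of its group (CPM), where a UMI stands for 1 captured RNA molecule and the UMIs of all cells of a group are summed. The cells of cluster 4 gave 6527457 UMIs in the IL1β + TNFα library and 9120957 in the vehicle library, with a median of 18880 and 19228.5 UMIs per cell, against 21806.5 and 20399 in the other cells. At an equal 15000 UMIs a cluster 4 cell had a median of 3197 genes in the IL1β + TNFα library and 3460 in the vehicle library, against 3271 and 3466 in the other cells. The median mitochondrial share was 6.94% with IL1β + TNFα and 6.66% with vehicle in cluster 4, against 6.43% and 6.21% in the other cells. Of the epithelial list, 29 genes were in the matrix, with summed levels of 8976 CPM with IL1β + TNFα and 5296 CPM with vehicle in cluster 4, against 14082 and 6408 CPM in the other cells. The summed levels of 4 lists for lymphoid, myeloid, basal and erythroid cells were at most 7.20 CPM in cluster 4, and of the fibroblast and endothelial list COL1A1 alone had UMIs in cluster 4 (13.0 CPM with IL1β + TNFα and 24.1 CPM with vehicle, against 20.9 and 20.3 CPM in the other cells). 8 cell barcodes occurred in both libraries, 1 of them in a cluster 4 cell.

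The phase calls deposited by the authors placed 92.1% of cluster 4 cells (303 of 329) in G1 and 7.90% in S phase in the IL1β + TNFα library, against 88.1% and 10.5% of the other cells. None of the 329 cells was called G2/M, which allows a share of up to 0.912%, against 1.41% of the other cells. In the vehicle library 43.3% of cluster 4 cells were called G1, 45.1% S and 11.6% G2/M, against 35.3%, 45.1% and 19.6% of the other cells. Phases called anew at 15000 UMIs per cell gave 33.7% G1 and 14.6% G2/M in cluster 4 of the vehicle library, against 25.6% and 25.1% in the other cells. The share of G1 calls was larger in cluster 4 than in the pooled other cells, among which cluster 2 had 1.06% with IL1β + TNFα and 0 of 740 cells with vehicle. It was smaller than in clusters 0, 1 and 3, which had 97.7% to 98.8% with IL1β + TNFα and 47.3% to 52.8% with vehicle. Values within G1 cells are therefore given beside some gene groups.

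What set cluster 4 apart was mostly RNA that was low. Among 8770 genes at 5 CPM or more in the IL1β + TNFα library, 627 (7.15%) were lower and 185 (2.11%) higher in cluster 4 than in the other cells by 1.5-fold or more, each with its 95% interval on the same side of 0. Among 9160 genes of the vehicle library, 261 (2.85%) were lower and 139 (1.52%) were higher. The split depended on the scaling. Higher genes were 22.8% of the calls in the IL1β + TNFα library and 34.8% in the vehicle library by total UMIs, 55.7% and 63.9% when ribosomal protein and mitochondrial genes were left out of the totals, and 20.3% in the vehicle library by TMM factors. Of 8442 genes measured in both libraries, 164 were lower (1.94%) and 29 were higher (0.344%) in both, and 0 were called in opposite directions. The 164 genes made up 26.2% of the lower genes of the IL1β + TNFα library and 62.8% of those of the vehicle library. Of these 164 genes, 112 had a lower CPM in cluster 4 than in any of the 5 other clusters in both libraries, as had 11.6% of all genes measured in both.

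Low genes shared by both libraries were ranked at 20 CPM or more in cluster 4 or the other cells of each library. The lowest included an uncharacterised gene, ISG15 (described below), secreted proteins, the calcium-binding S100A6 and the keratin KRT18. Of the 15 lowest, 10 were below each of the 5 other clusters in both libraries. Genes outside the 20 CPM limit also had low ratios in both libraries. They include LINC01133 (log2 ratios −3.05 with IL1β + TNFα and −4.85 with vehicle), S100P (−2.42 and −3.91), MME (−2.18 and −2.61) and MGP (−2.46 and −1.93). S100P came from few of the other cells. At an equal depth the top 136 of 2728 other cells held 88.4% of its UMIs with IL1β + TNFα. With vehicle the top 109 of 2188 held all of them, with up to 89 in a cell. C1orf21, a protein-coding gene of unknown function on chromosome 1 (184387029 to 184629019, plus strand, GRCh38), had 2.30 CPM in cluster 4 and 27.9 CPM in the other cells with IL1β + TNFα, and 8.22 against 54.8 CPM with vehicle. These are log2 ratios of −3.60 (95% interval −4.44 to −2.87) and −2.74 (−3.09 to −2.40). At an equal depth 2.30% of cluster 4 cells and 21.8% of other cells had a C1orf21 UMI with IL1β + TNFα, and 9.30% against 37.0% with vehicle (3.65% against 27.0%, and 12.9% against 43.2%, without thinning). Cluster 0 was the nearest, at 7.25 CPM with IL1β + TNFα (95% Poisson interval 6.21 to 8.42, against 1.29 to 3.79 in cluster 4) and 6.90 CPM with vehicle (4.93 to 9.40, against 6.47 to 10.3 in cluster 4), so the intervals overlapped with vehicle alone. C1orf21 lay between 22.4 and 88.6 CPM in clusters 1, 2, 3 and 5.

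TFF1, a secreted trefoil peptide that protects mucous surfaces (chromosome 21, 42362282 to 42366535, minus strand), had 220 CPM in cluster 4 and 1122 CPM in the other cells with IL1β + TNFα, and 22.7 against 67.8 CPM with vehicle, for log2 ratios of −2.35 and −1.58. Its cluster 4 level was the lowest of the 6 clusters in each library, next to cluster 5 with 244 and 33.5 CPM, whereas clusters 1 and 3 had the highest levels. TFF1 UMIs were unevenly spread over the cells. With IL1β + TNFα the 15 richest of 305 cluster 4 cells held 46.1% of its UMIs at an equal depth, with up to 70 UMIs in a cell and a median of 1. In the other cells the top 136 of 2728 held 37.0%, with a median of 3. With vehicle the top 109 of 2188 other cells held 68.4%, with up to 294 in a cell, and the median was 0 UMIs in both groups. PLA2G2A, a secreted phospholipase that acts on bacterial membranes, had 169 CPM in cluster 4 and 356 CPM in the other cells with IL1β + TNFα, and 8.99 against 31.9 CPM with vehicle. SLPI, a secreted protease inhibitor, had 133 against 272 CPM with IL1β + TNFα and 37.1 against 69.4 CPM with vehicle. TIMP1, an inhibitor of matrix metalloproteinases, had 103 against 220 CPM with IL1β + TNFα and 25.9 against 75.7 CPM with vehicle. Cluster 4 held less RNA of all 3 than the pooled other cells in both libraries, and the smallest of these log2 ratios in size was −0.91 (SLPI with vehicle). TIMP1 was lower than in each of the 5 other clusters in both libraries, whereas PLA2G2A and SLPI were not.

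S100A6, the calcium-binding protein calcyclin, had 244 CPM in cluster 4 and 495 CPM in the other cells with IL1β + TNFα, and 77.7 against 219 CPM with vehicle (log2 ratios −1.02 and −1.50). ANXA2, a membrane-binding annexin that forms complexes with S100 proteins, had 562 against 1366 CPM and 323 against 620 CPM (−1.28 and −0.94). TSPAN1, a tetraspanin of the cell surface, had 88.4 against 208 CPM and 61.7 against 154 CPM (−1.24 and −1.32). The simple epithelial keratins followed the same order. KRT18 had 831 against 1521 CPM with IL1β + TNFα and 389 against 743 CPM with vehicle, KRT8 had 610 against 1117 and 196 against 355 CPM, and KRT7 had 815 against 1596 and 154 against 257 CPM. KRT18 was lowest in cluster 4 and highest in cluster 3 (2209 CPM with IL1β + TNFα and 1378 CPM with vehicle). Unlike TFF1, KRT18 was spread evenly over the cells of cluster 4, where the top 15 of 305 cells held 10.7% of its UMIs.

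Enzymes, a heat shock protein and a cell cycle gene were also among the shared low genes. SMPDL3A, a phosphodiesterase, had 17.3 CPM in cluster 4 and 43.5 CPM in the other cells with IL1β + TNFα, and 20.4 against 38.4 CPM with vehicle. HSPB1, a small heat shock protein, had 72.0 against 155 CPM and 116 against 215 CPM. ECH1, an enzyme of fatty acid oxidation, had 24.8 against 52.1 CPM and 12.1 against 22.7 CPM, and FH, the fumarase of the citric acid cycle, had 40.4 against 75.2 CPM and 28.9 against 53.4 CPM. PTTG1, the securin that holds sister chromatids together until anaphase, had 2.76 against 20.9 CPM with IL1β + TNFα and 83.0 against 175 CPM with vehicle. FABP7, a fatty acid-binding protein named here after its values were seen, had 1.07 against 6.60 CPM and 0.658 against 8.98 CPM. FH and PTTG1 were not lower in cluster 4 than in every other cluster of both libraries.

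**Figure D1:**
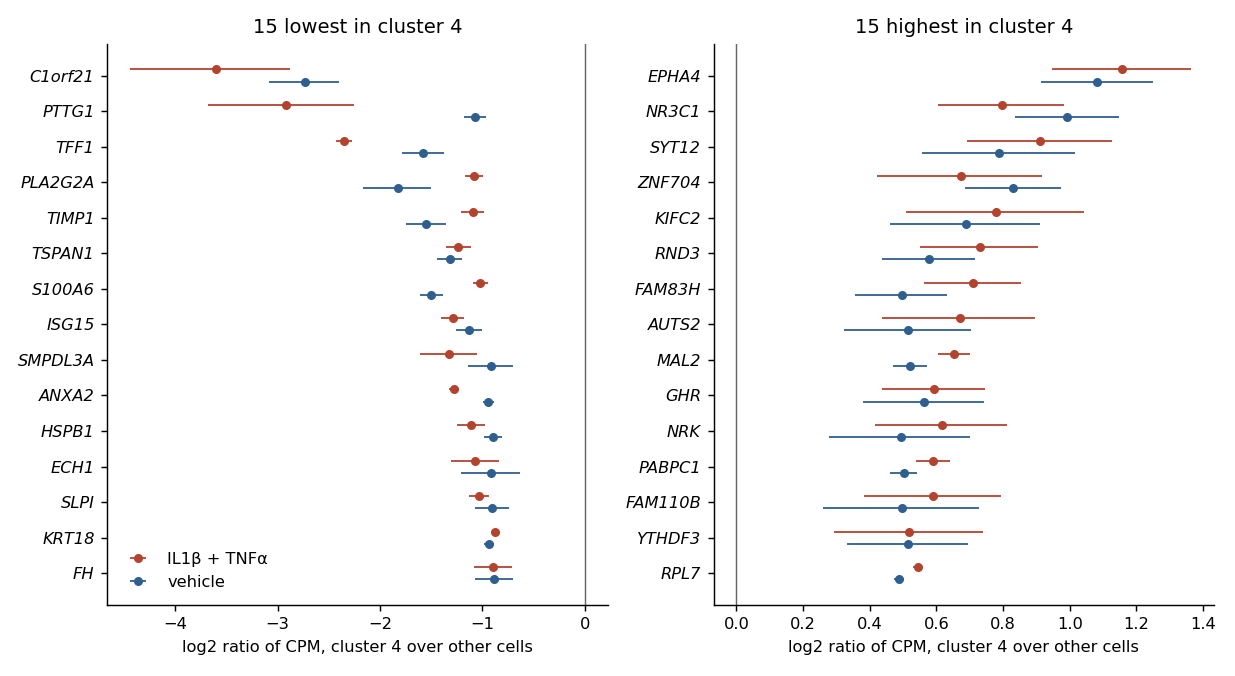
Log2 ratios of CPM in cluster 4 over the other cells (x axis) for the 15 lowest genes (left panel) and the 15 highest genes (right panel) shared by both libraries, with points for the ratio and bars for the 95% interval of counting error. Genes were ranked at 20 CPM or more in cluster 4 or the other cells of each library. Every bar lies on its own side of 0, and the low genes reach −3.60 (C1orf21) whereas the highest reaches 1.16 (EPHA4).

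By total UMIs the genes that were high in cluster 4 were fewer, and their ratios were smaller. EPHA4, a receptor tyrosine kinase for ephrins (chromosome 2, 221418027 to 221574202, minus strand), had 35.8 CPM in cluster 4 and 16.1 CPM in the other cells with IL1β + TNFα, and 43.9 against 20.7 CPM with vehicle. The log2 ratios were 1.16 (0.95 to 1.36) and 1.08 (0.91 to 1.25). At an equal depth 39.3% of cluster 4 cells and 19.2% of other cells had an EPHA4 UMI with IL1β + TNFα, and 43.5% against 24.3% with vehicle (45.3% against 25.7%, and 53.1% against 31.1%, without thinning). Its level was highest in cluster 4 in each library, and the nearest cluster was cluster 5 with IL1β + TNFα (23.4 CPM) and cluster 0 with vehicle (34.5 CPM). NR3C1, the glucocorticoid receptor (chromosome 5, 143277931 to 143435512, minus strand), had 41.4 against 23.8 CPM with IL1β + TNFα and 51.1 against 25.7 CPM with vehicle, for log2 ratios of 0.80 and 0.99. Cluster 0 came closest for NR3C1 in both libraries, with 35.2 CPM with IL1β + TNFα, and clusters 1 and 3 had between 11.5 and 14.2 CPM.

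SYT12, a synaptotagmin, had 32.2 CPM in cluster 4 and 17.1 CPM in the other cells with IL1β + TNFα, and 22.8 against 13.2 CPM with vehicle. RND3, a small GTPase family protein that loosens actin stress fibres, had 47.5 against 28.6 CPM and 59.1 against 39.6 CPM. GHR, the growth hormone receptor, had 61.1 against 40.5 CPM and 35.0 against 23.7 CPM. AUTS2, a nuclear regulator of transcription, had 28.3 against 17.8 CPM and 31.8 against 22.2 CPM, and NRK, a protein kinase, had 37.1 against 24.2 CPM and 25.5 against 18.2 CPM. The other 8 of the 15 highest genes, ZNF704, KIFC2, FAM83H, MAL2, PABPC1, FAM110B, RPL7 and YTHDF3, lie on chromosome 8 and are described with it. Only 5 of the 15 passed the 1.5-fold rule in both libraries, and all 15 were above each of the 5 other clusters in both, as were 7.78% of all genes measured in both. Among the 29 genes that passed it, and named after their values were seen, were the transcription factors NFIX (13.5 against 5.31 CPM and 16.2 against 8.13 CPM), CEBPA (18.2 against 11.7 CPM and 45.2 against 28.6 CPM) and GATA6 (5.97 against 3.28 CPM and 6.14 against 3.48 CPM). Also among them were the desmosome protein DSP, with 10.4 against 4.65 CPM and 13.3 against 7.26 CPM, and the laminin receptor subunit ITGA6, with 10.6 against 5.93 CPM and 11.0 against 6.37 CPM. Of the 29 genes 23 were above each of the 5 other clusters in both libraries, and DSP and CEBPA were not among these 23.

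**Figure D2:**
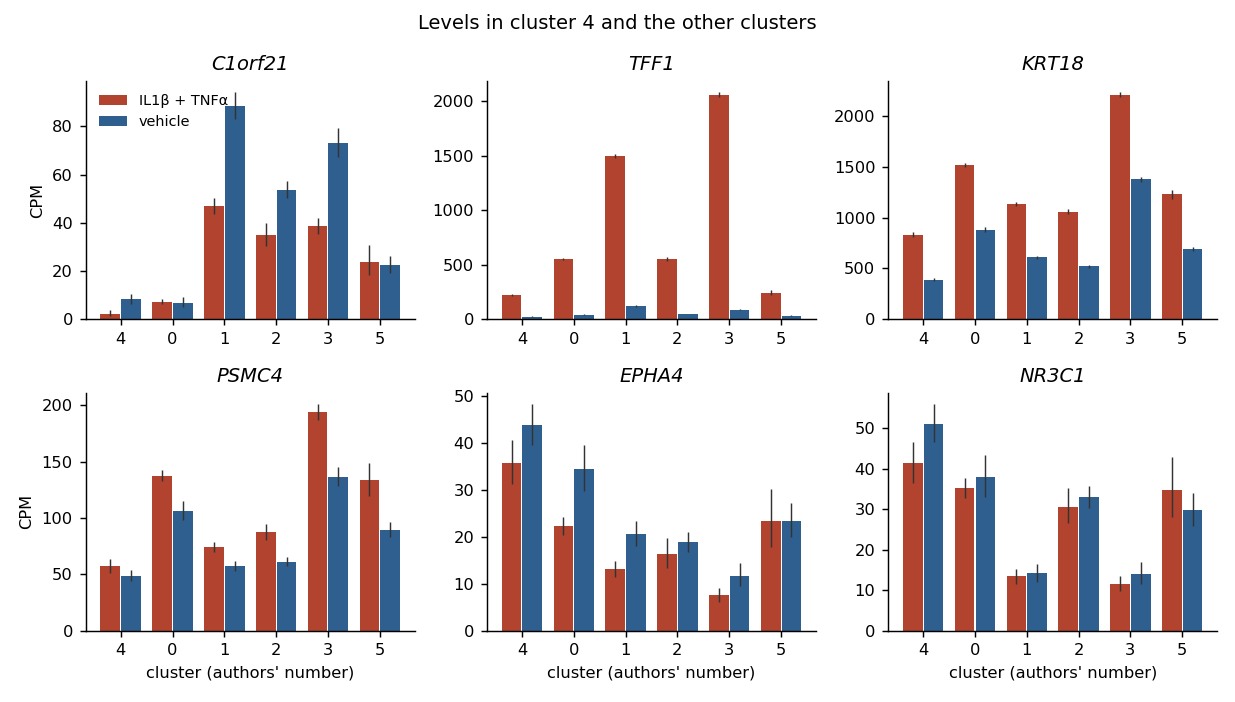
CPM (y axis) of 6 genes in cluster 4 and in the 5 other clusters (x axis, the authors' cluster numbers), with a bar for the IL1β + TNFα library left of a bar for the vehicle library and error lines for the exact 95% Poisson interval of counting error. Cluster 4 has the lowest TFF1, KRT18 and PSMC4 bars and the highest EPHA4 and NR3C1 bars of each library, and its C1orf21 bars are next to those of cluster 0 (7.25 and 6.90 CPM), below them with IL1β + TNFα and above them with vehicle.

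Some genes were among the 5 lowest or the 5 highest of 1 library without being among the 15 shared by both. S100A7, an antimicrobial S100 protein of inflamed epithelia, had 7 UMIs (1.07 CPM) in cluster 4 and 1444 UMIs (22.9 CPM) in the other cells with IL1β + TNFα, a log2 ratio of −4.42, and 0 and 1 UMIs with vehicle. KRT81, a hair keratin, had 1.99 against 20.8 CPM with IL1β + TNFα and 0.877 against 0.788 CPM with vehicle. Both genes came from few of the other cells. At an equal depth with IL1β + TNFα, the top 136 of 2728 other cells held all S100A7 UMIs and 99.6% of KRT81 UMIs. Single cells held up to 225 and 173 UMIs. TP53INP1, a stress-induced gene on chromosome 8, had 20.2 against 9.70 CPM with IL1β + TNFα and 7.35 against 4.61 CPM with vehicle, and NTN4, a netrin of basement membranes, had 34.5 against 18.5 CPM and 11.1 against 7.92 CPM. With vehicle, SHISA2, a member of the Shisa family of endoplasmic reticulum proteins, had 33.9 against 19.3 CPM, and 14.7 against 8.21 CPM with IL1β + TNFα. The histone gene HIST1H4C, whose RNA peaks in S phase, had 298 against 1265 CPM with vehicle and 69.6 against 118 CPM with IL1β + TNFα. Within G1 cells its log2 ratio was 0.02 with vehicle and 0.31 with IL1β + TNFα. The helicase PIF1 had 31.2 against 17.2 CPM with vehicle, and a log2 ratio of −0.27 within G1 cells.

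The proteasome genes were low as a group. The proteasome is the barrel-shaped protease that degrades ubiquitin-tagged proteins, with a core of PSMA and PSMB subunits and a cap of PSMC ATPases and PSMD subunits. Of its 31 measured genes, 19 were called lower in cluster 4 with IL1β + TNFα and 9 with vehicle, 0 were called higher, and all 31 had a ratio below 0 in each library. Of all measured genes 7.15% and 2.85% were lower. The median log2 ratio was −0.76 with IL1β + TNFα and −0.46 with vehicle, against −0.03 and −0.00 over all measured genes. 9 genes were called in both libraries, and 27 of 31 were lower in cluster 4 than in each of the 5 other clusters in both, beside 11.6% of all genes. The gap to some clusters was small, however. Against cluster 1 alone 0 of 31 were called in either library (medians −0.25 with IL1β + TNFα and −0.15 with vehicle). Of all measured genes 3.54% with IL1β + TNFα and 2.79% with vehicle were lower than in cluster 1. Against cluster 2 with vehicle 1 of 31 was lower (median −0.30), beside 576 of all 9220 measured genes. The cap ATPase PSMC4 (chromosome 19, 39971165 to 39981764, plus strand) had 57.3 CPM in cluster 4 and 129 CPM in the other cells with IL1β + TNFα, and 48.9 against 81.6 CPM with vehicle. Its partner PSMC3 had 55.3 against 109 CPM and 71.2 against 115 CPM, and PSMC2 had log2 ratios of −1.23 and −0.65. In the core, PSMA4 had 85.5 against 171 CPM and 86.5 against 148 CPM, and PSMB1 had 231 against 417 CPM and 194 against 322 CPM. Within G1 cells the medians were −0.80 and −0.54, so the difference was as large without S and G2/M cells.

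The promoters of S100A6, TSPAN1 and the proteasome cap ATPases PSMC4, PSMC2 and PSMC3 are shown. These genes stood low in cluster 4 in both libraries, and the table holds a single promoter for each. The core subunit PSMA4 had lower ratios than PSMC3 in both libraries, but its promoter is not shown. The sequences are RefSeq's, on GRCh38.p14, from 250 bases before to 50 after the start, read on the strand of the gene, and capitals mark a GC box (GGGCGG), the core of an antioxidant response element (TGACNNNGC) or a TATA box (TATAAA), searched on both strands. S100A6 lies at chr1:153535942-153536241 (minus strand), TSPAN1 at chr1:46174837-46175136 (plus strand), PSMC4 at chr19:39970915-39971214 (plus strand), PSMC2 at chr7:103347393-103347692 (plus strand) and PSMC3 at chr11:47426390-47426689 (minus strand).
S100A6: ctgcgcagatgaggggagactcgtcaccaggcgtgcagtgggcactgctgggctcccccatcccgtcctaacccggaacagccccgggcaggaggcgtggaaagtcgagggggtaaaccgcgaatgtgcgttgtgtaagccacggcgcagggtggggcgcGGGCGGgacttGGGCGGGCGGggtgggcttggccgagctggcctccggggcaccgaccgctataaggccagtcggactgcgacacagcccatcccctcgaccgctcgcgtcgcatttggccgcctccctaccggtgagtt
TSPAN1: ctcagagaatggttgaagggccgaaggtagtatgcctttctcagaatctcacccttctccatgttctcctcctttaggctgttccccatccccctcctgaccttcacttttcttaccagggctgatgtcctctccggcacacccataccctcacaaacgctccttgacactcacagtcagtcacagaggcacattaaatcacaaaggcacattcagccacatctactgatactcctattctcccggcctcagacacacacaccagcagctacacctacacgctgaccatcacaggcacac
PSMC4: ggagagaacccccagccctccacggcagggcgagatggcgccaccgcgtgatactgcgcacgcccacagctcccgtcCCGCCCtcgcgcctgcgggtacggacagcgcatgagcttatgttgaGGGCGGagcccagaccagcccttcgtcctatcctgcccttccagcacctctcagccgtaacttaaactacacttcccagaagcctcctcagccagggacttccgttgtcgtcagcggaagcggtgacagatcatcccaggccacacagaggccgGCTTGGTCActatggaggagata
PSMC2: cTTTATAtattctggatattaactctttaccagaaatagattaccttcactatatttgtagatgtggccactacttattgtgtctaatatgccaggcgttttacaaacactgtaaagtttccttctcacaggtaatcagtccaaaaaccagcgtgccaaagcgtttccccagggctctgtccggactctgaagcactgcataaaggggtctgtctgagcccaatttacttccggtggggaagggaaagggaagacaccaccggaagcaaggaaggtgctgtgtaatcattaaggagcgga
PSMC3: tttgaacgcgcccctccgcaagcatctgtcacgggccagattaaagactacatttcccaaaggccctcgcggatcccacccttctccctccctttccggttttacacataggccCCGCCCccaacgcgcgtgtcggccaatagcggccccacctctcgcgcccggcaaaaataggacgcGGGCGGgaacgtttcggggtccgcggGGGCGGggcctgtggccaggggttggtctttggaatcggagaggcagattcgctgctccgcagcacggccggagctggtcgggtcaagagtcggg

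S100A6 and PSMC3 each held 3 GC boxes in this window, and PSMC4 held 2 GC boxes and 1 antioxidant core, on the minus strand 27 bases past the start. PSMC2 held 1 TATA box, on the minus strand 249 bases before the start, and no GC box, and none of these motifs was found in the window of TSPAN1. The 3 GC boxes of S100A6 include 2 that share letters. Over the 21 proteasome genes with a single promoter in the table, 14 (66.7%) held a GC box, 5 (23.8%) an antioxidant core and 3 (14.3%) a TATA box. Over all 22114 genes with a single promoter these shares were 43.0%, 13.5% and 12.7%, and over all 35116 promoters 45.0%, 13.3% and 11.5%. Such letters are a description of the windows, and whether any factor bound there was not measured.

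Acute phase and antimicrobial genes, which epithelia secrete in inflammation, were also low in cluster 4 with IL1β + TNFα. Of 13 measured genes 9 were called lower and 1 higher, with a median of −1.03, and with vehicle 2 of 2 were lower. Among all measured genes 7.15% with IL1β + TNFα and 2.85% with vehicle were lower. S100A8 had 1883 CPM in cluster 4 and 3586 CPM in the other cells with IL1β + TNFα, and S100A9 had 2541 against 4938 CPM. The typical cells differed less. At an equal depth the S100A8 medians were 20 and 21 UMIs per cell and the 90th percentiles 58.6 and 141. For S100A9 the medians were 31 and 40.5 and the 90th percentiles 81.6 and 192. With vehicle all S100A9 UMIs of the other cells lay in the top 109 of 2188 cells, with up to 98 in a cell. SAA1 (serum amyloid A) had 67.9 against 186 CPM, SAA2 4.29 against 15.6 CPM, the elastase inhibitor PI3 26.4 against 69.6 CPM and the protease inhibitor SERPINA3 20.5 against 56.7 CPM. The complement protein C3 was the higher one, with 8.12 against 4.47 CPM, and LCN2, an iron-scavenging lipocalin, had 33.1 against 45.2 CPM. The list was not lowest in cluster 4 against each cluster, since 11 of 12 genes were lower than in cluster 0 (median −1.34) and 7 of 13 than in cluster 1 (median −0.88), while 4 of 10 were higher and 0 lower than in cluster 2 (median 0.49). Of all measured genes with IL1β + TNFα, 611 of 8735 were lower than in cluster 0 and 311 of 8796 than in cluster 1. Against cluster 2, 394 of 9125 were higher and 1331 lower.

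Genes of antigen presentation and of secretion were low as well, with more calls in the IL1β + TNFα library. MHC class I molecules carry peptides to the cell surface, and the immunoproteasome and the TAP transporter prepare and deliver those peptides. Of 16 measured genes of this group 12 were called lower with IL1β + TNFα (median −0.77), and 2 of 11 with vehicle (median −0.37), with 0 higher. Of all measured genes 7.15% with IL1β + TNFα and 2.85% with vehicle were lower. HLA-B had 13.9 CPM in cluster 4 and 34.8 CPM in the other cells with IL1β + TNFα, and 0.877 against 2.06 CPM with vehicle. HLA-C had 221 against 378 CPM and 95.5 against 129 CPM, and the transporter subunit TAP1 had 10.9 against 21.2 CPM with IL1β + TNFα. The proteasome activator PSME2 and the immunoproteasome subunit PSMB8 were lower in both libraries, PSME2 with 252 against 445 CPM and 118 against 180 CPM, and PSMB8 with 8.89 against 18.1 CPM and 1.86 against 5.30 CPM. Of 19 measured interferon-stimulated genes 6 were called lower with IL1β + TNFα, and 2 of 11 with vehicle, with medians of −0.45 and −0.27. The 2 were ISG15, a ubiquitin-like modifier with 111 against 272 CPM and 59.3 against 130 CPM, and IFI6, an interferon-induced membrane protein with 17.9 against 46.0 CPM and 1.86 against 6.15 CPM. ISG15 UMIs were unevenly spread over the cells. At an equal depth its vehicle median was 1 UMI in both groups, and the other cells held up to 750 of their 4198 UMIs in a cell. With IL1β + TNFα the medians were 1 and 2, and the top 136 of 2728 other cells held 47.9%.

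Vesicle traffic genes gave 8 of 25 lower with IL1β + TNFα (median −0.47) and 3 of 25 with vehicle (median −0.17), with 0 higher, beside 7.15% and 2.85% of all measured genes. SEC13, a coat protein of vesicles that leave the endoplasmic reticulum, had 39.2 CPM in cluster 4 and 80.5 CPM in the other cells with IL1β + TNFα, and 33.5 against 52.2 CPM with vehicle, and the coat GTPase SAR1A had 39.4 against 72.2 CPM and 41.0 against 64.4 CPM. The luminal epithelial list, which holds KRT7, KRT8, KRT18 and TFF1, gave 10 of 28 lower and 1 higher with IL1β + TNFα (median −0.38). With vehicle 6 of 27 were lower and 0 higher, and the list's median was −0.02, close to that of all genes. The 6 were the keratins KRT7, KRT8, KRT18 and KRT19 with TFF1 and AGR2. AGR2, a disulfide isomerase needed for mucin folding, had 615 against 1436 CPM and 500 against 861 CPM, and KRT19 had 1050.2 against 1905 CPM and 459 against 793 CPM. The luminal transcription factor FOXA1 had 190 against 141 CPM and 192 against 150 CPM, so not every luminal gene was low. Among actin-binding genes 7 of 32 were lower with IL1β + TNFα and 5 of 32 with vehicle, including the myosin light chains MYL12A (96.2 against 172 CPM and 53.9 against 98.8 CPM) and MYL12B (151 against 276 CPM and 94.9 against 169 CPM). The chaperone HSP90AA1 had 549 against 1034 CPM and 752 against 1371 CPM, and NQO1, a quinone reductase of the antioxidant response, had 578 against 1142 CPM and 404 against 727 CPM.

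2 groups lay slightly above the other cells throughout, without any gene passing 1.5-fold. The 81 ribosomal protein genes had a median log2 ratio of 0.25 with IL1β + TNFα and 0.16 with vehicle, and 78 of 81 were above 0 in each library. They took a median of 31.7% of a cell's UMIs in cluster 4 with IL1β + TNFα and 32.4% with vehicle, against 26.3% and 28.8% in the other cells. Of 21 long noncoding RNA genes, 21 were above 0 with IL1β + TNFα and 20 with vehicle, with medians of 0.30 and 0.27. GAS5, a host gene of small nucleolar RNAs, had 581 CPM in cluster 4 and 406 CPM in the other cells with IL1β + TNFα, and 461 against 344 CPM with vehicle. NORAD, a cytoplasmic noncoding RNA that binds Pumilio proteins, had 84.1 against 63.0 CPM and 70.3 against 56.2 CPM. The most abundant nuclear RNA, MALAT1, had 36298 against 34149 CPM with IL1β + TNFα and 23487 against 25479 CPM with vehicle, and NEAT1, the scaffold of paraspeckles, had 2174 against 2135 CPM and 1976 against 1744 CPM, so these 2 stood little apart. The 13 mitochondrially encoded genes had medians of 0.12 and 0.11, beside the mitochondrial shares given above.

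Cell cycle genes were lower in cluster 4 than in the pooled other cells, with 10 of 33 S phase genes and 12 of 29 G2/M genes with IL1β + TNFα, and 9 of 43 and 7 of 54 with vehicle, with medians between −0.41 and −0.25. The shares over all measured genes were 7.15% with IL1β + TNFα and 2.85% with vehicle. Against single clusters the directions differed. Against cluster 2, 42 of 43 S phase genes were lower with IL1β + TNFα (median −2.92) and 38 of 43 with vehicle (median −1.04). Of all measured genes 1331 of 9125 with IL1β + TNFα and 576 of 9220 with vehicle were lower than in cluster 2. Against clusters 0, 1 and 3, S phase genes were higher with IL1β + TNFα in 12, 14 and 13 of 28 (medians 0.41, 0.59 and 0.48). All measured genes gave 287 of 8735, 377 of 8796 and 914 of 8790 higher in these 3 comparisons. With vehicle 26 of 42 S phase genes were higher than in cluster 5 (median 0.87), and 18 of 53 G2/M genes higher than in cluster 3 (median 0.47). Over all measured genes of the vehicle library 828 of 9246 were higher than in cluster 5, and 837 of 9195 higher than in cluster 3. The proliferation marker MKI67 had 1.07 CPM in cluster 4 and 12.8 CPM in the other cells with IL1β + TNFα, and 94.4 against 141 CPM with vehicle. Within G1 cells the S phase medians were 0.16 with IL1β + TNFα and 0.03 with vehicle and the G2/M medians 0.15 and −0.16. The calls were made from genes of these phases, so these medians are no independent measure.

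**Figure D3:**
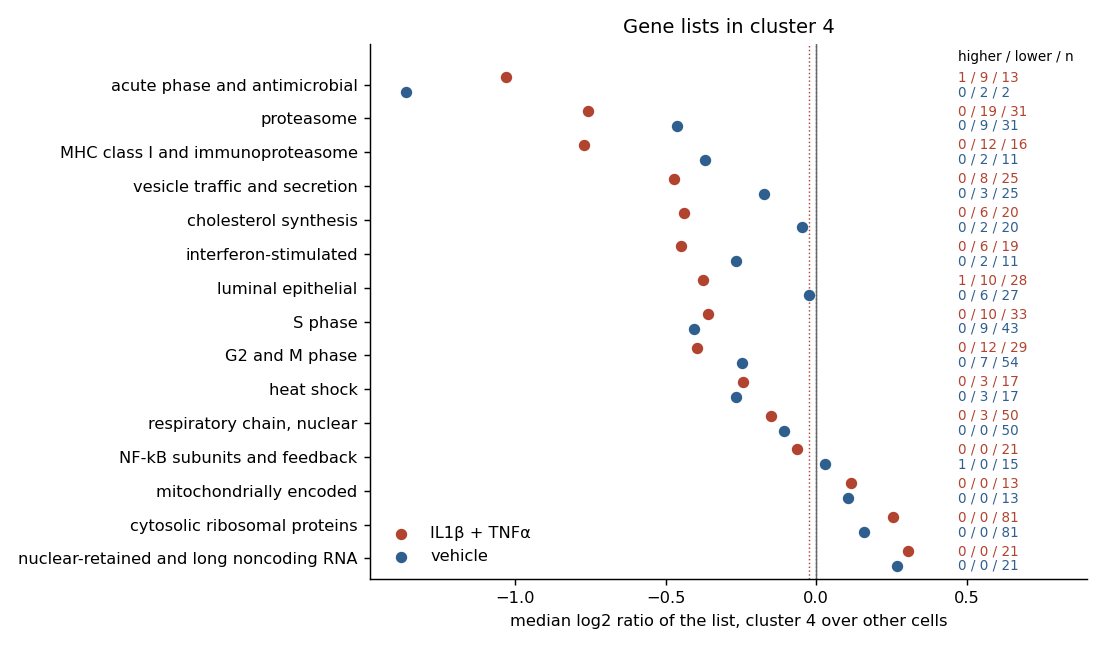
Median log2 ratio of CPM in cluster 4 over the other cells (x axis) for 15 gene lists (rows), with a point for each library, dotted lines for the median over all measured genes and, at the right, the numbers of genes called higher, called lower and measured (n). The acute phase points lie farthest to the left (−1.03 with IL1β + TNFα), followed by the MHC class I and proteasome points (−0.77 and −0.76), and ribosomal protein and noncoding RNA points lie to the right of 0 in both libraries.

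Among genes of tryptophan breakdown, TDO2 was the member called lower in cluster 4 in both libraries. TDO2 had 293 CPM in cluster 4 and 590 CPM in the other cells with IL1β + TNFα, a log2 ratio of −1.01 (−1.08 to −0.94), and 6.25 against 9.87 CPM with vehicle, a log2 ratio of −0.66 (−1.08 to −0.26). Within G1 cells the vehicle ratio was 0.08, so only the difference with IL1β + TNFα was there without S and G2/M cells. The share of cells with a TDO2 UMI at an equal depth was 66.2% in cluster 4 and 68.4% in the other cells with IL1β + TNFα, and 2.01% against 4.43% with vehicle (68.1% against 72.5%, and 2.68% against 5.22%, without thinning). The level with IL1β + TNFα differed by cluster, with 260 CPM in cluster 1, 293 in cluster 4, 432 in cluster 2, 663 in cluster 5, 685 in cluster 3 and 788 in cluster 0. With vehicle the 8 cluster 4 cells with a TDO2 UMI held 34 UMIs at an equal depth, and 1 of them held 16.

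KMO, which hydroxylates kynurenine, had 178 CPM in cluster 4 and 250 CPM in the other cells with IL1β + TNFα, and 9.10 against 9.36 CPM with vehicle. KYNU, which splits kynurenines to anthranilic acids, had 73.7 against 69.5 CPM and 2.41 against 4.39 CPM. IDO1 had 2 and 2 UMIs with IL1β + TNFα and 1 and 6 UMIs with vehicle, in cluster 4 and in the other cells, which is too few for a ratio. Of 10 measured genes of the list 3 were called lower with IL1β + TNFα (median −0.29) and TDO2 alone with vehicle (median −0.11), beside 7.15% and 2.85% of all measured genes. The other members called with IL1β + TNFα were KYAT3 (5.52 against 8.97 CPM with IL1β + TNFα) and the amino acid transporter subunit SLC3A2 (30.2 against 46.4 CPM). AHR, the receptor for kynurenine, had 7.20 against 6.31 CPM and 5.70 against 6.04 CPM, and its target CYP1B1, an oxidase of xenobiotics, had 61.4 against 68.1 CPM and 75.3 against 90.5 CPM, neither of which reached 1.5-fold.

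Genes of chromosome 8 were higher as a group in cluster 4. The median log2 ratio of 277 measured chromosome 8 genes was 0.19 with IL1β + TNFα, and that of 291 genes was 0.23 with vehicle, against −0.04 and −0.01 over genes elsewhere. The medians of the other chromosomes lay between −0.09 and 0.02 with IL1β + TNFα and between −0.05 and 0.03 with vehicle. On chromosome 8, 22 genes (7.94%) were called higher and 8 (2.89%) lower with IL1β + TNFα, and 27 (9.28%) higher and 2 (0.687%) lower with vehicle. Of measured genes elsewhere 1.83% were higher and 7.44% lower with IL1β + TNFα, and 1.22% and 2.99% with vehicle. Of the 29 genes higher in both libraries 5 lie on chromosome 8, which is 17.2% against 3.16% of the genes measured in both, and of the 164 lower genes 0 do. The medians were 0.18 and 0.17 by TMM factors, 0.21 and 0.25 within G1 cells and 0.18 and 0.22 without ribosomal protein genes.

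ZNF704, a zinc finger gene, had 24.5 CPM in cluster 4 and 15.4 CPM in the other cells with IL1β + TNFα, and 57.5 against 32.3 CPM with vehicle. MAL2, a protein of apical membrane transport, had 607 against 386 CPM and 424 against 296 CPM, and PABPC1, which binds the poly(A) tail, had 547 against 364 CPM and 690 against 487 CPM. RPL7, a protein of the large ribosomal subunit, had 6016 against 4126 CPM and 5717 against 4076 CPM. KIFC2, a kinesin, had 21.3 against 12.4 CPM and 23.5 against 14.6 CPM, FAM83H, a keratin-associated protein, had 69.9 against 42.7 CPM and 60.0 against 42.5 CPM, YTHDF3, a reader of methylated adenosine in RNA, had 29.1 against 20.3 CPM and 34.3 against 24.0 CPM, and FAM110B had log2 ratios of 0.59 and 0.50. In windows of 10 Mb the 57 genes from 140 to 150 Mb had medians of 0.30 with IL1β + TNFα and 0.40 with vehicle, and the 9 and 10 genes from 110 to 120 Mb had 0.32 and 0.30, whereas the windows from 10 to 30 Mb had medians below 0 in both libraries. The 4 ribosomal protein genes of chromosome 8 had a median of 0.44 in each library, and the 77 elsewhere 0.25 and 0.16.

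The share of a cell's UMIs that came from chromosome 8 genes had a median of 3.34% in cluster 4 with IL1β + TNFα and 3.58% with vehicle, against 2.57% and 2.56% in the other cells. The other cells fell into a lower and an upper range, and cluster 4 lay in the upper one. Above the 90th percentile of cluster 3 (2.68% with IL1β + TNFα and 2.65% with vehicle) lay 95.1% of cluster 4 cells (313 of 329) and 97.5% (437 of 448). The same limit was passed by 88.3% and 97.9% of cluster 0, 55.3% and 49.2% of cluster 2, 63.4% and 63.6% of cluster 5, and 16.2% and 14.3% of cluster 1. High chromosome 8 RNA was thus common to clusters 4 and 0 and was not particular to cluster 4, and DNA copy number was not measured.

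**Figure D4:**
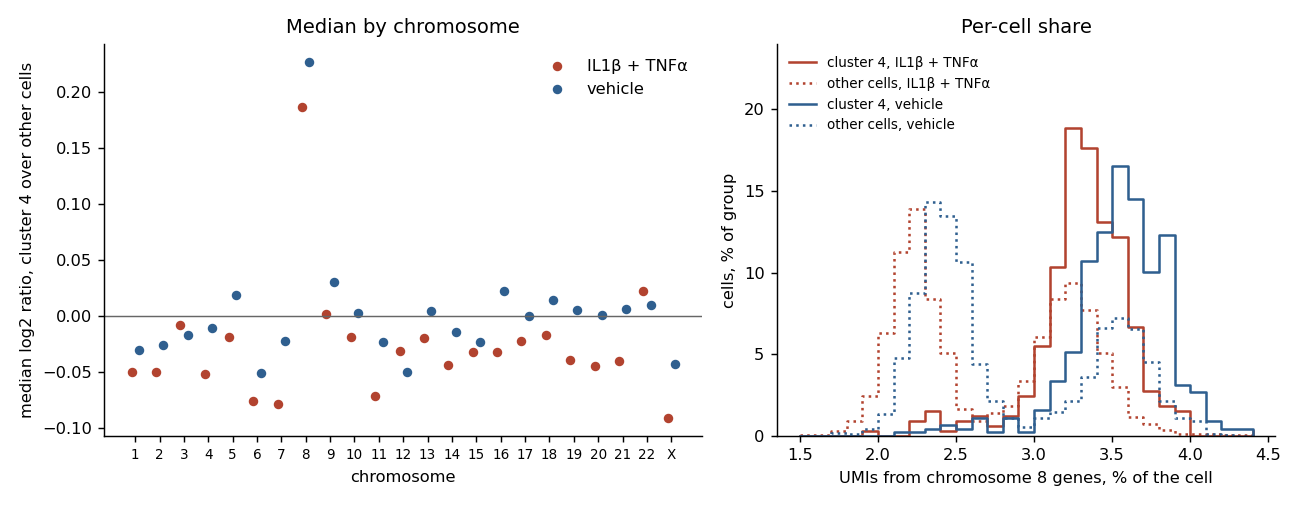
Left, the median log2 ratio of CPM in cluster 4 over the other cells (y axis) for the measured genes of each chromosome (x axis), with a point for each library. Right, the distribution over cells (y axis, percent of the group in bins) of the percent of UMIs from chromosome 8 genes (x axis), where cluster 4 (solid lines) has medians of 3.34% and 3.58% and the other cells (dotted lines) form 2 peaks.

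Clusters 0 and 1 were the most like cluster 4, with Pearson r of 0.984 and 0.982 over genes with IL1β + TNFα and 0.984 and 0.986 with vehicle, on log2(CPM + 1) and as a description over genes that share libraries. Against cluster 0 alone, 611 of 8735 genes were lower (6.99%) in cluster 4 and 287 higher (3.29%) with IL1β + TNFα, and 475 of 9181 lower (5.17%) and 334 higher (3.64%) with vehicle. Against cluster 1 alone, 311 of 8796 were lower (3.54%) and 377 higher (4.29%) with IL1β + TNFα, and 258 of 9233 lower (2.79%) and 231 higher (2.5%) with vehicle. What distinguished cluster 4 from these neighbours differed. From cluster 0 it differed by the proteasome, with 25 of 31 genes lower and a median of −0.85 with IL1β + TNFα and 23 of 31 and −0.74 with vehicle, while chromosome 8 genes were level (medians 0.04 and 0.02). From cluster 1 it differed by chromosome 8 genes (medians 0.40 and 0.41) and interferon-stimulated genes, with 15 of 22 lower and a median of −0.93 with IL1β + TNFα and 8 of 15 and −0.68 with vehicle, while 0 of 31 proteasome genes were called (medians −0.25 and −0.15). MHC class I genes were lower than in both neighbours with IL1β + TNFα, with 7 of 16 (median −0.59) against cluster 0 and 9 of 16 (median −0.69) against cluster 1. ISG15 showed the same contrast, with 111 CPM in cluster 4 against 145 in cluster 0 and 514 in cluster 1 with IL1β + TNFα, and 59.3 against 91.8 and 230 CPM with vehicle.

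Within cluster 4, genes of NF-κB, chemokine and acute phase programmes were higher with IL1β + TNFα, and genes of the cell cycle were lower. Of 9313 measured genes, 374 (4.02%) were higher and 758 (8.14%) were lower with IL1β + TNFα than with vehicle by 2-fold or more. The split depended on the scaling, since higher genes were 33.0% of the calls by total UMIs, 50.9% by TMM factors and 49.2% by DESeq2 size factors, which moved the median of all genes by 0.22 and 0.20 on the log2 scale. Each library is 1 culture, so these ratios compare 2 cultures and carry no test, and the numbers of G1 cells given above differ between them.

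Several genes were not detected in cluster 4 of the vehicle library, and their folds are bounds against 3 UMIs. LTB, the lymphotoxin subunit of the TNF family, had 307 CPM in cluster 4 with IL1β + TNFα and 0 UMIs with vehicle, at least 934-fold higher. In cells this was 48.5% of cluster 4 cells with an LTB UMI at an equal depth and 0 of 398 with vehicle, which allows a share of cells with a UMI of up to 0.754%. CCL2, a chemokine that attracts monocytes, had 104 CPM with IL1β + TNFα and 0 UMIs with vehicle, at least 316-fold higher, and CXCL8, which attracts neutrophils, had 73.7 CPM and 0 UMIs, at least 224-fold higher. The cytokine TNF itself had 42.6 CPM and 0 UMIs, at least 129-fold higher. Acute phase and antimicrobial genes did likewise, with SAA1 at 67.9 CPM, CFB (complement factor B) at 57.4 CPM, LCN2 at 33.1 CPM, PI3 at 26.4 CPM and SERPINA3 at 20.5 CPM, and 0 UMIs with vehicle for each of the 5. Their bounds ran from at least 62.4-fold for SERPINA3 to at least 206-fold for SAA1.

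The calprotectin subunits S100A8 and S100A9, which bind zinc and calcium in inflamed tissue, reached the highest levels. S100A9 had 2541 CPM in cluster 4 with IL1β + TNFα and 2.08 CPM with vehicle, a log2 ratio of 10.25, and S100A8 had 1883 CPM and 0.219 CPM from 2 UMIs, a log2 ratio of 13.07 (11.21 to 16.11). NFKBIA, the inhibitor that retains NF-κB in the cytoplasm, had 828 CPM with IL1β + TNFα and 70.7 CPM with vehicle (log2 ratio 3.55), and RELB, an NF-κB subunit, had 29.4 CPM and 1 UMI (8.07, interval 5.57 to 13.38). TFF1 had 220 CPM with IL1β + TNFα and 22.7 CPM with vehicle (9.69-fold higher). TDO2 was 46.9-fold higher, at 293 CPM with IL1β + TNFα and 6.25 CPM with vehicle, KMO had a log2 ratio of 4.29 and KYNU of 4.93. By group, 10 of 10 measured acute phase genes, 9 of 11 cytokines and chemokines, 12 of 21 NF-κB subunit and feedback genes, 10 of 15 MHC class I genes, 9 of 17 interferon-stimulated genes and 9 of 28 luminal genes were higher, with 0 lower in any of these groups. Over all measured genes 4.02% were higher. The keratins KRT7 and KRT8, which are in the luminal list, had log2 ratios of 2.40 and 1.64. Of 31 proteasome genes 0 were called, with a median of −0.02 by total UMIs and 0.20 by TMM, and the ribosomal protein median of −0.08 turned to 0.14 by TMM.

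Cell cycle genes were lower in cluster 4 with IL1β + TNFα in 48 of 53 measured G2/M genes (median −4.07) and 34 of 42 S phase genes (median −1.93), with 0 higher. Over all measured genes 8.14% were lower. MKI67 had 1.07 CPM with IL1β + TNFα and 94.4 CPM with vehicle (log2 ratio −6.46), and TOP2A, the topoisomerase of dividing cells, had 0.766 CPM and 62.7 CPM (−6.36). CCNA2, cyclin A2, had 3 UMIs with IL1β + TNFα and 31.1 CPM with vehicle. PIF1 had 0 UMIs with IL1β + TNFα and 285 UMIs with vehicle, at least 68.0-fold lower. The 8 other lowest genes, CENPA, GTSE1, UBE2C, ASPM, CEP55, TROAP, PLK1 and CENPE, are genes of G2 and mitosis, and their log2 ratios ran from −5.86 to −4.98. These values stand beside G2/M calls in 0 of 329 cells with IL1β + TNFα and 11.6% of cells with vehicle.

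Few genes differed in response between cluster 4 and the other cells at this depth. Of 9177 genes measured in the other cells, 394 (4.29%) were higher and 695 (7.57%) lower with IL1β + TNFα, and no gene was called in opposite directions in cluster 4 and in the other cells. The difference of both log2 ratios was 1 or more in size, with its interval on the same side of 0, for 69 of 9486 genes (0.727%), 20 of them with a higher ratio (0.211%) and 49 with a lower ratio (0.517%) in cluster 4. The differences were computed with 0.5 UMIs added to each count, so they can be smaller than the 2 printed ratios give. Of the 49 genes 16 were in the S and G2/M lists, and of the 20 genes 0 were. The lists held 43 S phase and 54 G2/M genes of the 9486 measured, so the 0 of 20 lies near their share of all genes. MKI67 had a log2 ratio of −6.46 in cluster 4 and −3.46 in the other cells, a difference of −2.90 (−3.94 to −1.86), and PTTG1 had −4.91 and −3.07. HIST1H4C ran the other way, with −2.10 in cluster 4 and −3.42 in the other cells, a difference of 1.32 (1.18 to 1.47). KRT81 had 1.18 in cluster 4 and 4.72 in the other cells, a difference of −3.56 (−4.88 to −2.24). At an equal depth 99.6% of the KRT81 UMIs of the other cells with IL1β + TNFα lay in 136 of 2728 cells. The interval does not cover such spread between cells. SNPH, a syntaphilin that anchors mitochondria and is named after its values were seen, had 181 CPM with IL1β + TNFα and 6.47 CPM with vehicle in cluster 4, against 131 and 10.4 CPM in the other cells, a difference of 1.13 (0.74 to 1.53). TMEM74B, a membrane protein, had 17.5 CPM and 2 UMIs in cluster 4, against 19.2 and 1.46 CPM in the other cells. The acute phase genes SAA1, SAA2, PI3 and SERPINA3 had 0 UMIs in both vehicle groups, and their differences, between −4.27 and −3.84, have intervals that include 0 and rest on the UMIs added. S100A7 had a difference of −5.17 (−9.90 to −0.44), from 7 and 0 UMIs in cluster 4, and its UMIs in the other cells likewise lay in few cells. CCL2 had a difference of 5.28 (1.27 to 9.28), since the other cells of the vehicle library held 114 CCL2 UMIs and cluster 4 held 0. At an equal depth all CCL2 UMIs of these other cells lay in 109 of 2188 cells, with up to 15 in a cell. 5 further genes of the largest differences, OASL, IFIT1, PLAAT4, SDCBP2 and EXO1, had 0 or 1 UMI in a cluster 4 library and are not read further.

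Most genes of the study's question did not differ by that much. TDO2 had a log2 ratio of 5.55 (5.17 to 5.96) in cluster 4 and 5.90 in the other cells, a difference of −0.36 (−0.76 to 0.04), and its level in cluster 4 was lower in each library, though with vehicle not within G1 cells. KMO had 4.29 in cluster 4 and 4.74 in the other cells, and KYNU had 4.93 and 3.99, a difference of 0.92 (0.28 to 1.56) that rests on 22 UMIs of KYNU in cluster 4 of the vehicle library. S100A9 had 10.25 and 9.39, a difference of 0.82 (0.16 to 1.48), and TFF1 had 3.28 and 4.05, a difference of −0.77 (−0.99 to −0.56). NFKBIA had 3.55 and 3.76, KRT8 had 1.64 and 1.66, and KRT18 had 1.09 and 1.03. No medians are compared for acute phase genes and for cytokines and chemokines, since 7 and 6 of their genes had 0 UMIs in a cluster 4 library. The medians of other groups were near each other, with 1.36 in cluster 4 and 1.53 in the other cells for MHC class I, 1.36 and 1.36 for NF-κB subunits and feedback genes, 1.01 and 1.26 for interferon-stimulated genes and −1.93 and −2.06 for S phase, whereas G2/M genes had −4.07 and −3.02.

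**Figure D5:**
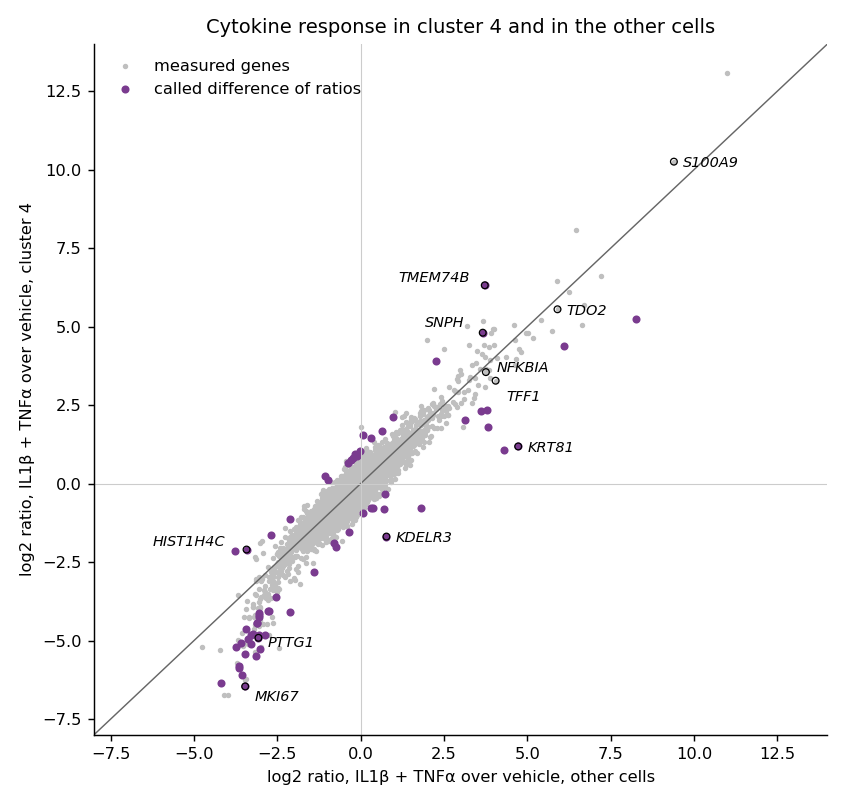
Log2 ratio of CPM with IL1β + TNFα over vehicle in cluster 4 (y axis) against the same ratio in the other cells (x axis), with a point for each measured gene that had UMIs in all 4 groups, filled purple where the difference of both ratios was called, and a line where the ratios are equal. Most points lie along the line, MKI67 and PTTG1 lie below it among the lowered genes, and KRT81 (1.18 against 4.72) lies below it among the raised genes. The KRT81 UMIs of the other cells with IL1β + TNFα lay in few cells.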

How the data were processed

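The authors deposited raw UMI counts of each gene in each cell, made by Cell Ranger 3.1.0 against GRCh38. Their Seurat 4.0.4 filter, as the methods give it, kept cells below 50000 UMIs and 15% mitochondrial UMIs whose gene number lay between 3000 and 5000, and dropped genes found in under 10 cells. The cells they removed were not analysed here. The cell table deposited by the authors gives, for each cell, counts of UMIs and genes, the percent of mitochondrial UMIs, phase scores, a phase call and the cluster number. The authors' phase scores were not used. The methods describe an integration of both libraries by sctransform with 30 principal components, and which settings gave the cluster numbers is not given in the sources used here. Doublets are not mentioned in the methods, and no doublet caller was run here, so cells of high UMI count stayed in.

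Members and gene lists were chosen with earlier results of these data known. UMIs were summed per library over cluster 4 and over the other cells and divided by their totals (CPM). Log2 ratios had exact 95% intervals from the conditional binomial distribution, CPM exact Poisson intervals, shares of cells Clopper-Pearson intervals and differences of 2 log2 ratios normal-approximation intervals with 0.5 UMIs added to each count, all for counting error only and none for the spread between cells or cultures. Genes at 5 CPM or more in either group counted as measured. Calls needed 1.5-fold between clusters, 2-fold between conditions or a difference of ratios of 1 on the log2 scale with at least 20 UMIs expected, and the interval on the same side of 0. With 1 library per condition no p-value was computed. Genes at 0 in a group were bounded against 3 UMIs summed over that group, and a share of 0 cells against 3 cells. Shares of cells with a UMI were taken after thinning each cell to 15000 UMIs, which left out 24 of 329 and 50 of 448 cluster 4 cells.

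Named genes were a fixed set (TDO2, KMO, KYNU, IDO1, AHR, CYP1B1, S100A8, S100A9, CCL2, CXCL8, LTB, NFKBIA, MKI67, TOP2A, TFF1, KRT7, KRT8, KRT18, MALAT1 and NEAT1, with 1 more that is not reported here), the 15 highest and 15 lowest by the smaller in size of both libraries' ratios at 20 CPM or more, the 5 highest and lowest of each library, the 12 highest and lowest between conditions, the 8 highest and lowest differences, and up to 4 members of each list. IDO2, HAAO and VIM were not analysed here. Of 16251 genes in the matrix, 13745 had a position in GENCODE 44, 326 of them through an older symbol. Alternatives covered thresholds, TMM and DESeq2 scaling, totals without ribosomal protein and mitochondrial genes, thinning, per-cell means, G1 cells, a mitochondrial limit of 10% and shared barcodes. Comparisons with cluster 0 or 1 alone and those of the chromosome 8 medians were added after seeing the data. Python 3.11.15, numpy 2.4.6, scipy 1.17.1, pandas 2.3.3, scanpy 1.11.5, matplotlib 3.10.9, R 4.3.3, edgeR 4.0.16 and DESeq2 1.42.0 were used, and the ratio and interval code was tested on simulated data.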

Additional observations from a re-analysis of the deposited data

Results flagged for a closer look

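KDELR3, a receptor that returns proteins to the endoplasmic reticulum, had opposite directions in cluster 4 and in the other cells. Its log2 ratio of IL1β + TNFα over vehicle was −1.69 in cluster 4 and 0.77 in the other cells, a difference of −2.39 with 0.5 UMIs added to each count (95% interval −3.49 to −1.30). The levels were 1.23 CPM with IL1β + TNFα and 3.95 CPM with vehicle in cluster 4, against 10.5 and 6.15 CPM in the other cells. These rest on 8 and 36 UMIs in cluster 4, each condition is 1 culture, and the difference was not tested across cultures.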

How the results depend on the processing

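Counts of calls moved most with the thresholds. A limit of 2-fold in place of 1.5-fold left 122 genes called between cluster 4 and the other cells with IL1β + TNFα (812 as reported) and 44 with vehicle (400). Measured genes at 20 CPM or more gave 428 and 174 calls, 530 between conditions within cluster 4 (1132 as reported) and 33 differences of response (69), and genes at 1 CPM or more gave 701 with vehicle and 1713 between conditions. A 1.5-fold limit gave 2729 calls between conditions and 315 differences. Within G1 cells the vehicle library had 708 calls, and against cluster 0 alone it had 809. The lists shared by both libraries, 29 higher and 164 lower genes as reported, held 1 and 17 at 2-fold, 5 and 107 at 20 CPM and 47 and 206 at 1 CPM, and 55 higher and 202 lower genes within G1 cells, which kept 19 of the 29 and 122 of the 164, and 77 higher and 91 lower genes with totals that leave out ribosomal protein and mitochondrial genes, which kept all 29 and 91 of the 164. Within G1 cells cluster 4 held 18.8% of the vehicle library, and phases called anew put 33.7% of its cells in G1. At 15000 UMIs the median genes per cell fell to 3197 and 3460. Within G1 cells 6 ratios changed sign, with IL1β + TNFα those of HIST1H4C (0.31), GTSE1 (0.62) and UBE2C (0.037), and with vehicle those of HIST1H4C (0.023), PIF1 (−0.27) and TDO2 (0.078). At 7500 UMIs per cell 289 genes were higher with IL1β + TNFα (185 as reported) and 239 with vehicle (139). The other alternatives kept the total counts of calls within 1.5 times, and the cause of the moves with scaling was not tested. Leaving out a library was not run, since each condition has 1. No paired analysis was possible because each condition has 1 library. The 20 UMIs expected for a difference limit what can be seen in cluster 4, and low-count ratios such as those of IDO1 were not detectable at this depth.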
